A study of Mus musculus with 4 samples.

Results

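Genes that escape X inactivation stay transcribed from the inactive X chromosome of female cells. The 9 genes described here, Kdm6a, Ddx3x, Kdm5c, Eif2s3x, Pbdc1, Utp14a, Mid1, 1810030O07Rik and 5530601H04Rik, are known escape genes of the mouse. They were taken by name, and all 9 were found among 952 X-linked genes and 22686 genes in the table. Of these, 8 had paternal shares on at least 20 allele-assigned reads in each library and were compared with the other 333 X-linked genes that met this minimum, 341 in all. Eif2s3x had 0 allele-assigned reads in each library, so only its total expression was measured.

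The measurements came from 4 RNA-seq libraries of epiblast stem cells (EpiSCs), which are pluripotent cells resembling the epiblast after implantation, from female embryos of stage E6.5. The cells came from a cross of C57BL6/J with an F1 of JF1 and C57BL6/J, in which strain variants tell the parental alleles apart. JF1 is an inbred strain of Japanese origin. The genotypes differed at Smchd1 and at Xist. Smchd1 was +/+ or MD1/MD1, a loss-of-function allele of the gene for the chromatin protein SmcHD1, and Xist was XistdeltaA/+ or Xist1lox/+. XistdeltaA lacks the A-repeat, the stretch of the RNA needed for silencing, and Xist1lox is a deletion allele. All 4 libraries were therefore heterozygous for an Xist mutation, and no library was free of one. Each of the 4 combined genotypes had 1 library, and the labels do not say how many embryos or cultures a library stands for. No difference between 2 libraries has a replicate check, a test on the reads of a pair compares those libraries and not the conditions, and intervals cover counting error only. Where 4 values stand in a row, the XistdeltaA/+ pair comes first and the Xist1lox/+ pair second, and within each pair +/+ comes before MD1/MD1.

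In X inactivation the noncoding RNA Xist coats a single X chromosome of each female cell and most genes on it are silenced. SmcHD1 joins this chromosome later and is needed for the methylation of many of its CpG islands and for lasting silence of many genes. Escape genes keep an open chromatin state within the silent chromosome, and several of them, among them Kdm6a, Ddx3x, Kdm5c and Eif2s3x, have a partner gene on the Y chromosome. The Y-linked partners Uty, Ddx3y, Kdm5d and Eif2s3y were looked up. They are not among the genes listed, so their expression could not be read.

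Libraries held between 7301034 and 8008500 allele-assigned reads. Smchd1 was measured at 27.0, 6.68, 20.9 and 5.98 FPKM, so it was lower in both MD1/MD1 libraries. Reads of Xist were at least 99.5% paternal in each library. Of 11 primed epiblast genes, 10 were at an FPKM of 1 or more in each library. Genes of other cell types differed between the libraries. The 8 fibroblast genes summed to 43.1, 119.8, 56.6 and 57.9 FPKM, with 7, 8, 8 and 8 of them at 1 or more. The 10 macrophage genes summed to 23.8, 986, 350.5 and 315 FPKM, with 2, 9, 9 and 9 of them at 1 or more and Tyrobp and Emr1 listed at 0 in the first library. Paternal shares of the escape genes are read against 2 levels within the same libraries. Autosomal genes in regions where both alleles were present had median shares of 49.1%, 46.9%, 48.6% and 48.5%. Autosomal genes in regions with maternal-type alleles alone had medians of 0%, 0.0664%, 0% and 0%. Both kinds of region were picked by their shares, so these levels are descriptions.

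Promoter sequences are shown for 2 escape genes whose paternal share was high in each library, Kdm6a and Ddx3x, and for 2 whose share was low in the +/+ libraries and higher in the MD1/MD1 libraries, Utp14a and 1810030O07Rik. Each is the stretch from 250 to 101 bases before the RefSeq start, 150 bases, written 5′ to 3′ on the strand of the gene, with CpG dinucleotides in capitals. They come from the reference of GRCm38.p6, a later build than the mm9 of the expression table, at chrX:18162325-18162474 (+ strand) for Kdm6a, chrX:13280772-13280921 (+ strand) for Ddx3x, chrX:48256684-48256833 (+ strand) for Utp14a and chrX:12673740-12673889 (- strand) for 1810030O07Rik.
Kdm6a: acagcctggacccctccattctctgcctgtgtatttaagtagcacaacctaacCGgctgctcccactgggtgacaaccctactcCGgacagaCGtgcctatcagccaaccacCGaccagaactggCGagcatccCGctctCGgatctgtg
Ddx3x: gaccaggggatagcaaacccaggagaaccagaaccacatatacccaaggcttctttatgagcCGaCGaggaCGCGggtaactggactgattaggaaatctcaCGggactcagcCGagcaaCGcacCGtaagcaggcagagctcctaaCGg
Utp14a: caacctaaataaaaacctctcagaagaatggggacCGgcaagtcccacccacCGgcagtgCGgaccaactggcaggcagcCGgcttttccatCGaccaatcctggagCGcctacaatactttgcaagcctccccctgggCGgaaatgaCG
1810030O07Rik: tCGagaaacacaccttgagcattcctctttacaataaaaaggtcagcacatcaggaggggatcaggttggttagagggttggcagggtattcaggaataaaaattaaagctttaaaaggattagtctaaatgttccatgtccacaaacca
These stretches hold 7, 9, 8 and 1 CpG dinucleotides. Over the full 250 bases before the start, Ddx3x had 22, Eif2s3x 19, Utp14a 17, Kdm6a 15, Pbdc1 14, Kdm5c 10, 5530601H04Rik 8 and 1810030O07Rik 6, and Mid1 had 0, 5 and 9 at its 3 starts. Annotated transcripts of Kdm5c and 5530601H04Rik held 207 and 429 bases before the start used here. The Mid1 start with 9 matched no annotated transcript. Which starts were in use in these cells was not tested. The median over the 11 member windows was 10, against 5 over 1223 X-linked and 6 over 32851 windows of all chromosomes. Of the genes with changing paternal shares, Utp14a had a high CpG count, between those of Ddx3x and Kdm6a. 1810030O07Rik and 5530601H04Rik, whose shares were also higher in both MD1/MD1 libraries, had 6 and 8. Mid1, whose share differed little between the Smchd1 genotypes, had 0, 5 and 9. The letters CCATNTT, the core bound by YY1, and AGGGGGC, part of the site bound by CTCF, were searched on both strands of the 250 bases. Neither was in any of the 11 member windows, while 15.9% and 10.1% of the X-linked windows and 12.4% and 9.43% of all windows held them. That says only that these letters are not in these windows.

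The escape genes spanned a wide range of paternal shares, and most neighbours in their order overlapped. Kdm6a was highest, with a median over the 4 libraries of 47.7% (range 42.98 to 49.2). Ddx3x followed at 35.2% (33.05 to 35.6), Kdm5c at 32.2% (25.4 to 33.4), 5530601H04Rik at 25.5% (13.99 to 30.9) and Pbdc1 at 23.5% (22.2 to 30.7). The remaining 3 were lower, 1810030O07Rik at 12.1% (7.26 to 19.1), Mid1 at 11.8% (9.08 to 14.3) and Utp14a at 10.5% (1.19 to 17.3). Of neighbours in this order, Kdm6a and Ddx3x did not overlap in their ranges, nor did Pbdc1 and 1810030O07Rik, while the other 5 neighbouring pairs did. At a share of 10% or more, 5 of 8 escape genes were counted in both +/+ libraries, where 3.23% of the 341 X-linked genes were. In both MD1/MD1 libraries 7 of 8 were counted, where 19.1% of X-linked genes were. In bulk RNA, a share between 0 and that of 2 active alleles cannot tell apart fewer cells with paternal transcription from less paternal RNA per cell.

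**Figure D1:**
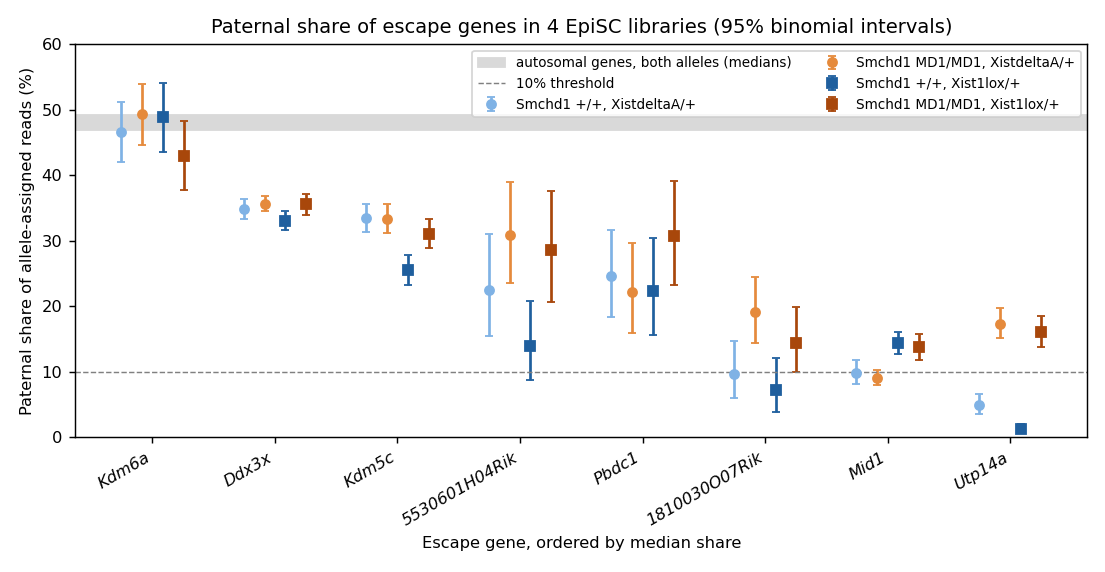
Paternal share of allele-assigned reads (%, y axis) for 8 escape genes (x axis, ordered by median), 1 point per library with its exact 95% binomial interval. The grey band spans the medians of autosomal genes read from both alleles (46.9% to 49.1%), the dashed line marks 10%, and Kdm6a lies at or near the band while the 2 MD1/MD1 points of Utp14a (17.3% and 16.0%) lie far above its 2 +/+ points (4.96% and 1.19%).

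A small group of genes gave a large part of what the paternal X produced in +/+ cells. Paternal output was computed as FPKM times the paternal share, maternal output as the rest. Of the paternal output of 340 X-linked genes without Xist, the 8 escape genes made up 59.5% (XistdeltaA/+) and 40.1% (Xist1lox/+) where Smchd1 was +/+. The same genes made up 18.5% and 16.0% where it was MD1/MD1. Their part of the maternal output was 3.09%, 4.06%, 3.04% and 3.37%. Ddx3x alone carried most of it, since without Ddx3x the other 7 made up 20.4%, 5.48%, 13.8% and 5.31% of the paternal output. Summed paternal output of the escape genes was 1.32-fold higher in MD1/MD1 with XistdeltaA/+ and 1.39-fold higher with Xist1lox/+. For the other X-linked genes without Xist it was 8.51-fold and 4.90-fold higher. On the FPKM scale, the smaller part held by escape genes in MD1/MD1 thus went with a larger output of the other genes and not with a fall of their own sum. No test was made of these sums, which have 1 library per combined genotype. Ddx3x gave 65.6% to 70.5% of the escape gene sum in each library. With Xist1lox/+ its paternal output was 1.41-fold higher by FPKM, but 0.976-fold by paternal reads scaled to autosomal allele-assigned reads.

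Changes of the paternal share in MD1/MD1 ran from -2.35 to 12.4 points among the escape genes with XistdeltaA/+ and from -5.81 to 14.8 with Xist1lox/+. Utp14a was the highest in each pair, followed with Xist1lox/+ by 5530601H04Rik at 14.6 points. The share was higher in MD1/MD1 for 5 of 8 with XistdeltaA/+ and 6 of 8 with Xist1lox/+, where 75.1% and 68.0% of the 341 genes were higher. Their median differences were 1.78 and 6.38 percentage points, against 2.72 and 2.33 over the 341 genes. Fisher's exact test on reads, two-sided and with Benjamini-Hochberg adjustment over the 341 genes, called 1 of 8 higher in both pairs, Utp14a, where 35.8% of X-linked genes were called. It called 0 of 8 lower in both, where 2.05% were called, and 0 of 8 had an unadjusted p under 0.05 in that direction in either pair. In the XistdeltaA/+ pair alone 2 of 8 were called higher (46% of X-linked genes) and 0 of 8 lower (3.52%), and in the Xist1lox/+ pair alone 4 of 8 were called higher (41.1%) and 0 of 8 lower (4.69%). With the Cochran-Mantel-Haenszel test over both pairs 4 of 8 were called higher, where 51.6% of X-linked genes were.

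**Figure D2:**
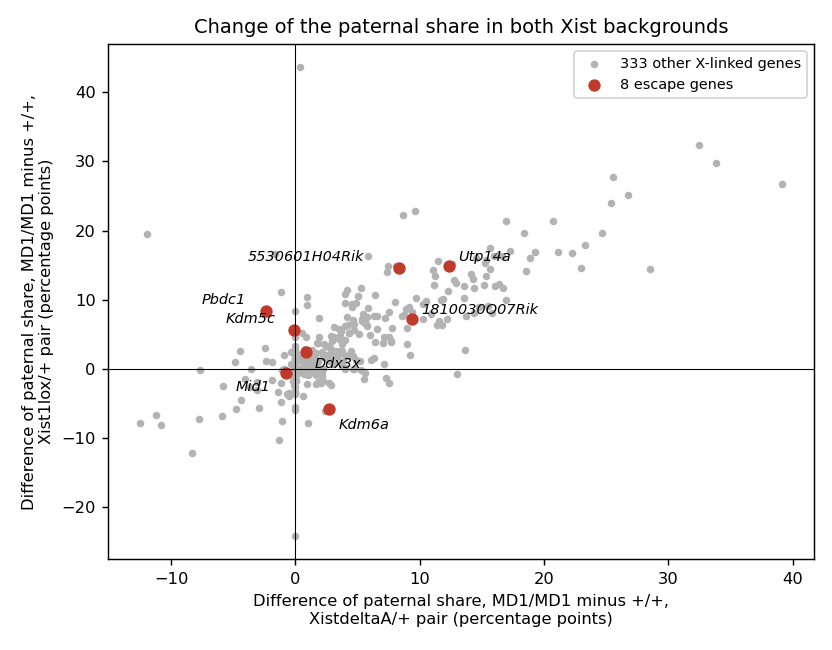
Difference of the paternal share (MD1/MD1 minus +/+, percentage points) in the XistdeltaA/+ pair (x axis) and the Xist1lox/+ pair (y axis), 1 point per X-linked gene. Of the 8 escape genes in red, Utp14a lies at 12.4 and 14.8 points, while Ddx3x (0.834 and 2.49) and Mid1 (-0.774 and -0.601) lie near the origin.

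Kdm6a and Kdm5c encode histone demethylases that remove methyl groups from lysine 27 and lysine 4 of histone H3. Kdm6a (mm9, X chromosome, 17739793 to 17856484, + strand) had paternal shares of 46.5%, 49.2%, 48.8% and 42.98% on 475, 463, 371 and 356 reads. Its exact intervals held the autosomal median for both alleles in 3 libraries, and in MD1/MD1 Xist1lox/+ the interval (37.8 to 48.3) ended just below that median of 48.5%. The share differed by 2.72 points (-3.66 to 9.07) in the XistdeltaA/+ pair and by -5.81 points (-12.96 to 1.43) in the Xist1lox/+ pair, with adjusted p from Fisher's exact test of 0.605 and 0.209. The libraries of both genotypes overlapped. Kdm5c (148667770 to 148713642, + strand) had 33.4%, 33.4%, 25.4% and 31.05% on 1474 to 1989 reads, so that the +/+ Xist1lox/+ library was the low one. Its difference was -0.0821 points (-3.08 to 2.92) with XistdeltaA/+ and 5.61 points (2.46 to 8.72) with Xist1lox/+, the latter with an adjusted p of 0.00162 from Fisher's exact test. Both pairs' effects were compared by their log odds ratios, and that test missed the threshold for Kdm5c (adjusted p = 0.187).

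Ddx3x encodes an RNA helicase that acts in translation, and Eif2s3x a subunit of the initiation factor that brings the first tRNA to the ribosome. Ddx3x has a close autosomal copy, and how reads shared by both were counted is not given in the sources used. Ddx3x (12858148 to 12871109, + strand) was the most highly expressed escape gene, at 198.6, 274, 178.1 and 233.7 FPKM. Its share was the steadiest, at 34.8%, 35.6%, 33.05% and 35.5% on 3585 to 6600 reads, a range of 2.59 points. Differences were 0.834 points (-1.05 to 2.70) and 2.49 points (0.377 to 4.60), with adjusted p of 0.561 and 0.0476 from Fisher's exact test. Both MD1/MD1 libraries had a higher FPKM than both +/+ libraries. The paternal output was 69.1, 97.6, 58.9 and 83.1, and the maternal output 129.5, 176.4, 119.3 and 150.7. Paternal output was therefore 1.41-fold higher in each pair, and maternal output 1.36-fold and 1.26-fold. Allele-assigned reads gave another picture in the Xist1lox/+ pair. Scaled to the autosomal allele-assigned reads of each library (RPM), paternal reads were 181.5 and 300.7 with XistdeltaA/+ but 182.7 and 178.4 with Xist1lox/+.

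Eif2s3x (91434048 to 91457990, - strand) was at 31.7, 25.6, 27.4 and 30.1 FPKM. The genotypes overlapped, with ratios of 0.807 with XistdeltaA/+ and 1.10 with Xist1lox/+. Its neighbour Zfx, 65.3 kb away, encodes a zinc finger transcription factor. In the +/+ libraries none of the 82 and 53 reads of Zfx was paternal, so shares of up to 3.66% and 5.66% were possible, and in MD1/MD1 Zfx reached 9.62% and 22.8%. Klhl15, 22.3 kb away on the other side, had 3.57%, 3.03%, 3.85% and 0% on 26 to 36 reads.

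Pbdc1, a little studied protein-coding gene (102275095 to 102312429, + strand), and 5530601H04Rik, a long noncoding RNA gene on the other strand (102236193 to 102265463), lie 9.63 kb apart and point away from each other. Pbdc1 had shares of 24.6%, 22.2%, 22.4% and 30.7% on 134 to 175 reads. Its differences, -2.35 points (-11.4 to 6.91) and 8.33 points (-2.16 to 18.5), went opposite ways and neither passed Fisher's exact test (adjusted p of 0.888 and 0.231). 5530601H04Rik had 22.5%, 30.9%, 13.99% and 28.6% on 119 to 149 reads, so both MD1/MD1 libraries were above both +/+ libraries. The differences were 8.37 points (-2.36 to 18.6) and 14.6 points (4.69 to 24.5), with adjusted p of 0.224 and 0.0142 from Fisher's exact test. Its expression was low, between 1.33 and 1.57 FPKM, and the interval of each share spans over 10 points.

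Utp14a encodes a component of the small subunit processome, which makes ribosomes (45610111 to 45635626, + strand). Its shares were 4.96%, 17.3%, 1.19% and 16.0% on 867, 1090, 1010 and 944 reads. The 2 MD1/MD1 libraries were close to each other and far above both +/+ libraries, whose intervals of 3.61 to 6.62 and 0.621 to 2.07 did not overlap. The differences were 12.4 points (9.68 to 15.1) and 14.8 points (12.4 to 17.3), with adjusted p of 2.88e-17 and 4.16e-35 from Fisher's exact test. A quasi-binomial logistic model over the 4 libraries, which has 1 residual degree of freedom, gave an adjusted p of 0.272. That model called 1 of 8 escape genes higher, 1810030O07Rik, where 37% of X-linked genes were called. Paternal output was 1.46, 6.55, 0.405 and 5.87, and maternal output 27.9, 31.2, 33.7 and 30.8. Paternal output was thus 4.50-fold and 14.5-fold higher in MD1/MD1 while maternal output was 1.12-fold and 0.915-fold that of +/+. Total FPKM was 29.4, 37.8, 34.1 and 36.7.

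1810030O07Rik, an uncharacterised protein-coding gene (12232010 to 12250672, - strand), rose in 1 pair by Fisher's exact test. Its shares were 9.69%, 19.1%, 7.26% and 14.4% on 179 to 257 reads, again with both MD1/MD1 libraries above both +/+ libraries. The differences were 9.37 points (2.79 to 15.6) and 7.16 points (0.855 to 13.3), with adjusted p of 0.017 and 0.0714 from Fisher's exact test. Paternal output was 1.16, 2.25, 0.746 and 1.67, which is 1.94-fold and 2.23-fold higher in MD1/MD1, and maternal output was 0.882-fold and 1.04-fold that of +/+. Total FPKM stayed between 10.3 and 12.0.

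Mid1 encodes a ubiquitin ligase bound to microtubules and lies at the end of the X, across the boundary of the pseudoautosomal region in C57BL/6 mice (166123131 to 166428729, + strand). Its shares were 9.85%, 9.08%, 14.3% and 13.7% on 1025 to 2324 reads, so the libraries grouped by Xist mutation and not by Smchd1. The differences in the Smchd1 pairs were -0.774 points (-3.04 to 1.31) and -0.601 points (-3.12 to 1.98), with adjusted p of 0.647 and 0.845 from Fisher's exact test. Total expression went another way, at 10.9, 24.5, 19.4 and 13.8 FPKM, a ratio of 2.25 in the XistdeltaA/+ pair and 0.712 in the Xist1lox/+ pair. Paternal output moved in the same direction within each pair, at 1.07, 2.23, 2.78 and 1.89, but was highest in +/+ Xist1lox/+. The lowest and the highest library for total FPKM of Mid1 were also the lowest and the highest for the summed fibroblast and macrophage genes. The part of those genes in the result was not tested.

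**Figure D3:**
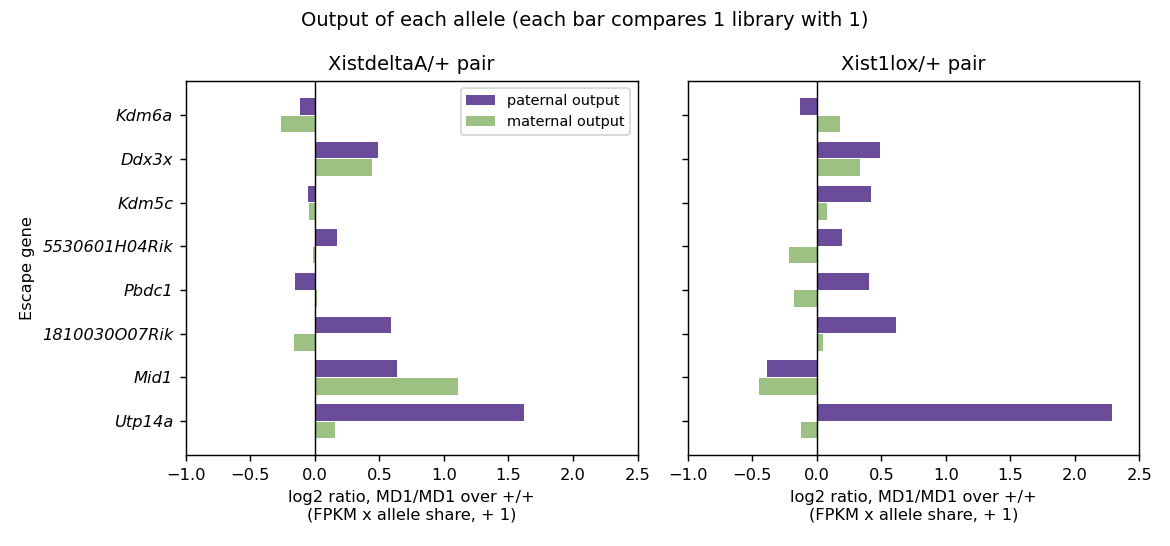
The log2 ratio of MD1/MD1 over +/+ (x axis, on the FPKM times allele share plus 1 scale) of paternal output (purple) and maternal output (green) for 8 escape genes, in the XistdeltaA/+ pair (left) and the Xist1lox/+ pair (right), each bar comparing 1 library with 1. Utp14a has paternal ratios of 1.62 and 2.29 beside maternal ratios of 0.16 and -0.12, whereas both alleles of Mid1 are above 0 on the left and below 0 on the right.

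Total expression and allele outputs were also tested over the 4 libraries with limma, 2 against 2 and with 1 residual degree of freedom. For total FPKM, limma called 0 of 9 escape genes by Smchd1 genotype, where 0.0349% of 11471 genes were called, and 1 of 9, Ddx3x, had an unadjusted p under 0.05. edgeR and DESeq2 on allele-assigned counts called 0 of 8, where 0.043% of 11617 and 0.143% of 15333 genes were called. With both tools 0 of 8 had an unadjusted p under 0.05, where 304 genes did with edgeR and 313 with DESeq2. For paternal output limma called 1 of 8, where 8.5% of 341 genes were called. This was Ddx3x, with a log2 difference of 0.49 (SE 0.019) and an adjusted p of 0.0388 from limma, higher in 2 of 2 pairs. At an unadjusted p under 0.05 limma gave 3 of 8, Ddx3x, Utp14a and 1810030O07Rik, and 152 of 341 genes. The call was lost with a pseudocount of 0.1 and with a minimum of 10 reads. Utp14a had the largest log2 difference of the 8, 1.95 (SE 0.27), and missed the threshold (adjusted p = 0.0644 from limma). For maternal output limma called 0 of 8, where 0.587% were called, with Ddx3x again the 1 gene at an unadjusted p under 0.05. An exact permutation test of 2 libraries against 2 cannot go below p = 0.333.

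The other factor of the design, the Xist mutation, was set out within each Smchd1 genotype. These comparisons share libraries with those above. In +/+ the share was higher in Xist1lox/+ than in XistdeltaA/+ for 1 of 8 escape genes by Fisher's exact test, where 5.28% of X-linked genes were called, and lower for 2 of 8, where 1.47% were. Mid1 was the higher one, by 4.45 points (1.91 to 6.88, adjusted p = 0.0144). Kdm5c was lower by -7.99 points (-11.01 to -4.93, Fisher's exact test adjusted p = 1.54e-05) and Utp14a by -3.77 points (-5.50 to -2.24, adjusted p = 3.98e-05). In MD1/MD1 the test called Mid1 alone, higher by 4.62 points (2.44 to 6.92, Fisher's exact test adjusted p = 0.00137), where 3.81% of X-linked genes were called higher and 1.17% lower. limma called 0 of 9 for total FPKM by Xist mutation, where 0% of 11471 genes were called. It called 0 of 8 for paternal output (0% of 341 genes) and 0 of 8 for maternal output (0.293%). At an unadjusted p under 0.05 limma gave 0 of 9, 1 of 8 and 0 of 8.

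Genes beside the escape genes were read next, to see whether paternal expression stopped at their borders. The rule took the 2 nearest genes on each side with enough reads, which gave 27 genes that are not members. In +/+ the median shares of these neighbours were 0.641% and 1.08%, against 0% and 0.163% over the 333 X-linked genes that are not members. Of the 27, 1, Fundc1, was at 10% or more in both +/+ libraries, where 3.23% of the 341 X-linked genes were. In MD1/MD1 the medians of the neighbours were 5.41% and 5.88%, against 3.41% and 3.33% over the 333 genes. At 10% or more in both MD1/MD1 libraries were 6 of 27, where 19.1% of the 341 X-linked genes were. Fisher's exact test called 13 of 27 (48.1%) higher in both pairs, where 35.8% of X-linked genes were called, and 1 lower, where 2.05% were. No test set the neighbours apart from the rest of the X.

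The flanks of the members differed from each other. Around 1810030O07Rik and on towards Ddx3x, the neighbours Atp6ap2, Med14 and Usp9x were each called higher in both pairs. The next neighbour beyond Atp6ap2 was called in neither pair, at 5.61%, 3.23%, 1.37% and 2.55%. Atp6ap2, which encodes an accessory subunit of the proton pump, lies on the far side of 1810030O07Rik from Ddx3x and rose from 0.402% to 13.99% and from 0% to 12.0%. Med14, a Mediator subunit gene 1.82 kb from 1810030O07Rik, rose from 3.49% to 18.7% and from 3.71% to 19.05%. Usp9x, a deubiquitinase gene 107.7 kb from Ddx3x, rose from 7.603% to 14.0% and from 6.13% to 16.8%. Cask, on the far side of Ddx3x, had 0%, 0%, 1.22% and 5.88% on 51 to 82 reads. The MD1/MD1 shares of 1810030O07Rik itself were 19.1% and 14.4%.

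At Kdm5c, the long noncoding RNA gene Kantr, 15.7 kb away, went from 3.35% and 5.16% to 24.1% and 26.6%. Smc1a, a cohesin subunit gene on the other side, had no paternal read among 1011 and 1085 where Smchd1 was +/+, so shares of up to 0.297% and 0.276% were possible. Its MD1/MD1 shares were 16.0% and 11.9%. Iqsec2, which lies between Smc1a and Kdm5c, was not called, at 0%, 2.78%, 2.17% and 5.26% on 38 to 72 reads. Around Pbdc1 and 5530601H04Rik, Zdhhc15 was at 1.75% or less and Atrx, a chromatin remodeller gene, at 0.375% or less in each library. Magee1, 3.31 kb from Pbdc1, had 6.82%, 13.9%, 2.22% and 2.94% on 34 to 79 reads and was not called. Around Utp14a, none of Ocrl, Zdhhc9, Bcorl1 and Elf4 was called higher by Fisher's exact test in either pair. Zdhhc9, 48.2 kb away, fell from 5.28% to 1.21% with XistdeltaA/+ (Fisher's exact test adjusted p = 0.017), and had 4.53% and 3.12% with Xist1lox/+. The nearest measured neighbour of Kdm6a, the mitophagy receptor gene Fundc1, lies 590.4 kb away. It fell in both pairs, from 23.1% and 21.2% to 10.6% and 13.3%. Maoa, a monoamine oxidase gene 1475 kb from Kdm6a, was called higher in both pairs, from 1.37% to 7.95% and from 0.708% to 6.52%. On the other side Rp2h, 2085 kb away, was also called higher in both, from 0% to 15.5% and from 0.654% to 9.76%. Chst7, 1780 kb away, had 0%, 7.41%, 0% and 13.95% on 42 to 54 reads and was called higher with Xist1lox/+ alone. Beside Mid1, Hccs and Msl3 were called higher in both, Hccs from 0% to 5.14% and 5.02%.

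**Figure D4:**
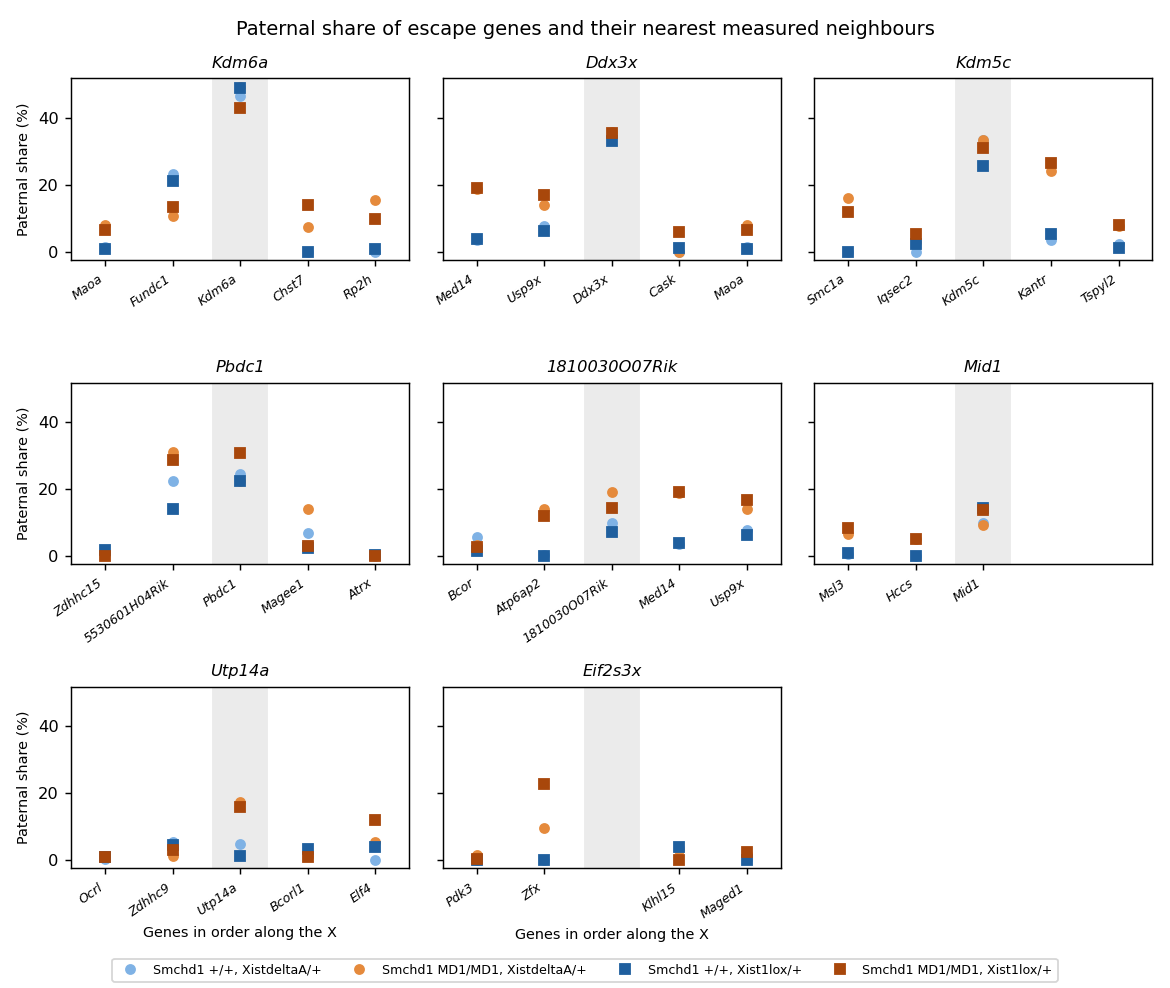
Paternal share (%, y axis) of an escape gene (shaded) and up to 2 measured neighbours on each side in gene order (x axis), with 1 point per library, blue for +/+ and orange for MD1/MD1, circles for XistdeltaA/+ and squares for Xist1lox/+. Med14 rises beside 1810030O07Rik (3.49% and 3.71% to 18.7% and 19.05%), whereas Bcorl1 beside Utp14a stays at 3.36% or less. 5530601H04Rik is drawn in the panel of Pbdc1, and Eif2s3x itself has no point.

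Other X-linked genes were ranked by how closely their 4 shares matched each member, as the Euclidean distance over the 4 libraries. Nearest to Utp14a was Otud5, at 3.87 points, with 2.48%, 19.8%, 0.434% and 17.5%. Nearest to 1810030O07Rik was Tmem29, at 3.998 points, with 9.77%, 21.97%, 9.18% and 16.4%. Gpkow lay 6.44 points from Mid1, and Jpx 11.5 points from 5530601H04Rik. Ftx was nearest to Kdm5c at 20.9 points and to Ddx3x at 26.1, Fundc1 to Pbdc1 at 21.0, and Klhl4, on 28 to 56 reads, to Kdm6a at 36.1.

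Other genes reported to escape in some mouse cells showed no single behaviour. Of 9 on the list, 2 were at 10% or more in both +/+ libraries, Ftx and Jpx, which are noncoding genes beside Xist. In both MD1/MD1 libraries 3 of 9 were. Of the 341 X-linked genes, 3.23% were in both +/+ and 19.1% in both MD1/MD1 libraries. Fisher's exact test called 2 of 9 higher in both pairs, Ftx and Shroom4 (35.8% of X-linked genes), and 1 lower, Firre (2.05%). Jpx had 18.2%, 41.2%, 12.1% and 26.7% on 33 to 66 reads and passed in the XistdeltaA/+ pair alone (adjusted p of 0.0358 and 0.269). Bgn and Car5b had few or no paternal reads. Bgn was at 0.169% or less, while its total expression was 19.9, 79.2, 33.2 and 37.0 FPKM. The cell type that its reads came from was not tested. Car5b had 0 paternal reads of 23 to 88, where 23 reads allow up to 13.04%. Syap1 was at 1.78% or less. Of 9 genes listed for the X inactivation centre, 5 had shares. Fisher's exact test called 3 of these 5 higher in both pairs, Ftx, Chic1 and Rlim, where 35.8% of X-linked genes were called.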

How the data were processed

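Members and gene lists were chosen with earlier results of these data known. Libraries were stranded mRNA libraries from total RNA, per the labels' protocols. Cufflinks 2.2.1, Cuffdiff and mm9 are named in the submitters' processing notes. The sources used here give no aligner, variant list or annotation. The authors deposited, per the file headers, the count of allele-assigned reads, the fraction of them that is paternal, and FPKM for each gene and library. Fraction times count gave whole paternal reads for 100% of values within 1e-06. A further 6 columns of per-sample values were not used. Starts were moved to count from 1.

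Shares have exact Clopper-Pearson intervals at 95%, differences Newcombe intervals. Fisher's exact test was adjusted over 341 X-linked genes with at least 20 reads in all 4 libraries, with calls at 0.05. Both pairs were compared by a normal test of log odds ratios with 0.5 added. Where no paternal read was seen, 3 reads of the total set the limit. limma 3.58.1 with a trend fitted log2(FPKM + 1), or log2 of allele output plus 1, on Smchd1 genotype plus Xist mutation, so ratios of low values are understated. Total FPKM was filtered at a mean of 1. edgeR 4.0.16 and DESeq2 1.42.0 on allele-assigned counts were alternatives. Autosomal levels used 10 Mb windows of at least 5 genes, with a median share of 35% to 65% or under 5%. Fisher's test, limma and edgeR were tested on simulated data. Promoters are from RefSeq (GRCm38.p6), matched by symbol for 9 of 9 members.

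Named genes were the members, up to 2 neighbours on each side, the nearest gene by shares, Smchd1, Xist and the listed genes. A single neighbour is not reported here by name.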

Additional observations from a re-analysis of the deposited data

Results flagged for a closer look

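For Utp14a the effect of MD1/MD1 on the paternal share differed between the Xist backgrounds, with an adjusted p of 0.00674 from the test of both log odds ratios, where 2.05% of 341 X-linked genes were called and 1 of 8 escape genes. On the scale of percentage points the effects were 12.4 and 14.8. The shares of both MD1/MD1 libraries were 17.3% and 16.0%, while those of the +/+ libraries were 4.96% and 1.19%, so the backgrounds were farther apart in +/+.

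For Mid1 total FPKM moved in opposite directions by at least 1.2-fold, with MD1/MD1 at 2.25 times +/+ in the XistdeltaA/+ pair and 0.712 times in the Xist1lox/+ pair. That difference between pairs was not tested, as each combined genotype has 1 library. Allele-assigned reads scaled to the autosomal reads (RPM) showed the same directions for both alleles, with log2 ratios of 1.03 and -0.38 for paternal and 1.16 and -0.30 for maternal reads. The part of fibroblast and macrophage genes, given in the report, was not tested.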

How the results depend on the processing

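No paired analysis was possible because each combined genotype has 1 library and the labels carry no replicate numbers by which to pair libraries. The Xist background entered limma as a term and the Cochran-Mantel-Haenszel test as a stratum. Of the summary results, 62 of 80 alternative values lay within 1.5 times a reported count, or within the quartiles for an autosomal median. Within that limit, X-linked genes called higher went from 122 to 176 with the Cochran-Mantel-Haenszel test, and members counted in both +/+ libraries from 5 to 7 at a threshold of 5%. The values outside it follow. Escape genes called higher in both pairs numbered 1, and 4 with the Cochran-Mantel-Haenszel test, 4 in the Xist1lox/+ pair alone and 2 in the XistdeltaA/+ pair alone, the single-pair counts being chosen after seeing the data. X-linked genes called lower numbered 7, and 20, 16 and 12 under the same alternatives and 15 in the quasi-binomial model. In that model 126 of 341 X-linked genes and 1 escape gene were higher, but it was 1810030O07Rik (adjusted p = 0.0194) and not Utp14a (adjusted p = 0.272). Members counted in MD1/MD1 Xist1lox/+ went from 8 to 5 at a threshold of 20%. The pooled share of the 8 genes was 28.4%, 28.9%, 24.6% and 28.7%. It was 23.3%, 27.1%, 20.8% and 26.6% with equal weight per gene, and 23.1%, 21.8%, 17.5% and 23.5% without the gene with the most reads. The 1 paternal output call by limma became 0 with a pseudocount of 0.1 and 0 at a minimum of 10 reads, where 0 of 376 genes passed, and the cause was not tested. For Ddx3x, called by limma, the log2 ratio of paternal output with Xist1lox/+ turned from 0.49 to -0.034 when allele-assigned reads scaled to autosomal reads replaced FPKM, and the cause was not tested. When each of the 4 libraries was left out in turn, limma with a Smchd1 term alone called 0 escape genes for total FPKM and gave 0 at an unadjusted p under 0.05. With 2 libraries of 1 genotype and 1 of the other, the lone library is assumed to vary like the rest. Depth limits the low genes most, as shares on 119 to 175 reads have intervals of over 10 points.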
